A study of Mus musculus with 12 samples.

Results

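The genes described are 10 heat shock proteins of the mouse, taken by symbol from a list chosen with earlier results of these data known. They are Hspa8, Hspa1a and Hspa1b of the HSP70 family, Hsph1 of the HSP110 family, the J protein Dnajb1, the HSP90 gene Hsp90aa1, the mitochondrial chaperonin pair Hspd1 and Hspe1, and the small heat shock proteins Cryab and Hspb1. All 10 were found among the 18607 genes listed in at least 1 of 2 expression tables, and all 10 were in both. RNA-seq was done on primary neurons of C57BL/6 mice, with 12 libraries in 4 groups of 3, all collected on day 10. The H-Ras(G12V) libraries over-expressed H-Ras carrying the activating G12V change, a GTPase locked in its signalling state, from an adeno-associated virus (AAV) and were set against libraries labelled mCherry, a fluorescent protein. The etoposide libraries were treated with a topoisomerase II poison and were set against the solvent DMSO. The study uses H-Ras(G12V) as a model of oncogene-induced senescence and etoposide as a model of stress-induced senescence of neurons. The viral promoter, the age of the animals and the dose of etoposide were not stated, nor was it stated if the 3 libraries of 1 group were separate cultures. P-values therefore measure the spread between these libraries only, and that spread can be technical.

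Heat shock proteins are chaperones that keep other proteins folded. HSP70 binds exposed hydrophobic stretches of a client in a cycle driven by ATP, J proteins deliver clients and start ATP hydrolysis, HSP110 exchanges the nucleotide, and HSP90 takes over clients at a late stage of folding. Small heat shock proteins hold unfolding clients without ATP, and Hspd1 with its lid Hspe1 folds proteins inside mitochondria. Many of these genes are induced by heat shock factor 1 (HSF1), which binds heat shock elements in their promoters. Hspa8 is known as the constitutive HSP70, abundant in neurons, Hspa1a and Hspa1b are inducible ones, and Cryab is known from glia of the brain.

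Several libraries need naming before the values. For the etoposide and DMSO libraries the treatment tag contradicts the title, and the titles, which the table's column names follow, were used, so every etoposide direction holds for the libraries titled etoposide. Etoposide library 3 had rank correlations across genes of 0.9685 to 0.9857 with the DMSO libraries, but of 0.9206 and 0.9464 with etoposide libraries 1 and 2. Its level of the mitotic cyclin Ccnb1, a gene chosen after its values were seen, was nevertheless 0.33 FPKM beside 0.54 and 0.39 FPKM in the other etoposide libraries, against 10.2 to 16.0 FPKM in DMSO libraries. FPKM scales the fragments of a gene by the length of its transcript and by the size of the library. mCherry library 3 correlated with mCherry libraries 1 and 2 at 0.9650 and 0.9630, whereas those 2 correlated with each other at 0.9928. The mouse Hras row read 33.5 to 51.6 FPKM in H-Ras(G12V) libraries, against 43.0 to 45.9 FPKM in mCherry libraries. No source says if the viral sequence is counted in that row, so the row does not check the labels. Neuron markers were present throughout, with a summed level over 13 genes of 726 to 2610 FPKM in the etoposide libraries and of 1360 to 2321 FPKM in the other libraries. Rough depths, from the steps between low FPKM values, were 13600000 to 15000000 fragments a library in the H-Ras(G12V) table and 22700000 to 26900000 in the etoposide table.

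Promoters are shown because several of these genes are known targets of HSF1. RefSeq windows of the GRCm38.p6 assembly were matched for 7 of the 10 genes. Hspa8, Cryab and Hsp90aa1 are named only. The windows below hold the 250 bases before the annotated start, 5′ to 3′ on the strand of the gene, with heat shock element matches in capitals. A match was GAANNTTC or TTCNNGAA, which are 2 neighbouring units of the element and are their own reverse complements, so both strands were covered, and matches may overlap.
Hspa1a, chr17:34972157-34972406, minus strand: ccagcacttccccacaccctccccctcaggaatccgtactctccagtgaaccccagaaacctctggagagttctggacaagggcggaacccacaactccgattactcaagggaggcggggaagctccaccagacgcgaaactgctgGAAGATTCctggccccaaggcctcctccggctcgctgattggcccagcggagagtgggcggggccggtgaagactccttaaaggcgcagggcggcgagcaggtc
Hspa1b, chr17:34959239-34959488, minus strand: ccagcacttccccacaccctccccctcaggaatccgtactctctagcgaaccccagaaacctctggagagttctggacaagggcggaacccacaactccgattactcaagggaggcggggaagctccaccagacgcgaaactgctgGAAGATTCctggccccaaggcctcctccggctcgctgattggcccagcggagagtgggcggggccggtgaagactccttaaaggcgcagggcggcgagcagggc
Hspb1, chr5:135887669-135887918, plus strand: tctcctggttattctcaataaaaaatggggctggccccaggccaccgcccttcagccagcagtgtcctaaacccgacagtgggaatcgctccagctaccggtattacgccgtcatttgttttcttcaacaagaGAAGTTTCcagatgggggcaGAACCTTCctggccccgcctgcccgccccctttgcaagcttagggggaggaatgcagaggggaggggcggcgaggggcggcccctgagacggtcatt
Hspe1, chr1:55087898-55088147, plus strand: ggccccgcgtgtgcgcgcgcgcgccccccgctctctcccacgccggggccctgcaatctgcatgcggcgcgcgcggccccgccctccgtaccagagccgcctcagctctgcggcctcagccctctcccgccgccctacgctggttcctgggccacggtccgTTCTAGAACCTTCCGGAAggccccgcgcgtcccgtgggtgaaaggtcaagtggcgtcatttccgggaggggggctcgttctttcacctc
The Hspa1a and Hspa1b windows differed at 3 of 250 bases, an identity of 98.8%, and both held 1 match starting 104 bases before the start. Hspb1 held 2 matches, at 117 and 97 bases. Hspe1 held a run of 3 overlapping matches, at 89, 84 and 79 bases, and a window of Hspd1, which is transcribed in the other direction, overlapped the one shown and held the same run on the other strand. The 2-unit match occurred in 7 of the 10 windows of member genes, some genes having 2 windows, and in 12.84% of all 32851 windows. These 7 windows are not separate sites. The 2 windows of Hsph1 overlap and hold the same match, Hspd1 and Hspe1 share a run, and the Hspa1a and Hspa1b windows are near-identical. The count is therefore no measure of enrichment. Hsph1 held 1 match, and no Dnajb1 window held one. Of the 2 Dnajb1 windows, 1 lies downstream of the other annotated start, so only 1 is sequence before the whole gene. A match of 3 neighbouring units in alternating orientation, also read on both strands, was found for Hspd1 and Hspe1 only among these genes, and in 0.4657% of all windows.

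The order of levels was alike in the 4 groups at the top. Hspa8 was the most abundant member, with a mean of 1412 FPKM in H-Ras(G12V), 1332 in mCherry, 2119 in etoposide and 1483 in DMSO libraries, and it did not overlap the second member, Hsp90aa1, in any group. Hsp90aa1 had means of 413, 525, 502 and 339 FPKM in the same order of groups, and its DMSO libraries overlapped those of Hspe1. Hspd1 and Hspe1 came next, with overlapping libraries in every group except mCherry. The lowest places went to Hspa1a, Hspa1b and Hspb1, whose means lay between 2.39 FPKM, for Hspb1 in DMSO libraries, and 27.1 FPKM, for Hspa1b in etoposide libraries. Hspa8 made up 54.4 to 56.997% of the summed FPKM of the 10 members in H-Ras(G12V) libraries, against 54.3 to 55.1% in mCherry libraries. In etoposide libraries it made up 58.4 to 66.2%, against 58.8 to 72.9% in DMSO libraries.

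**Figure D1:**
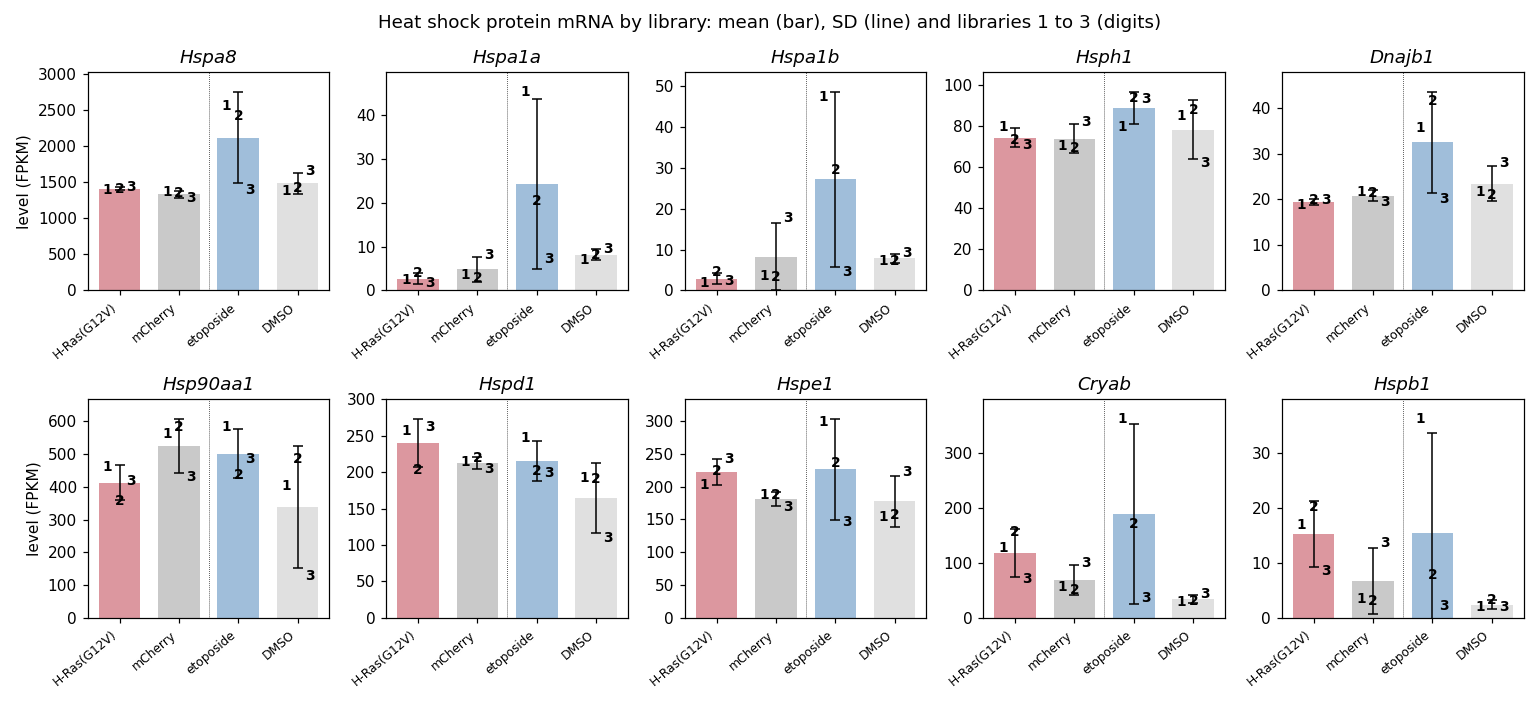
Level in FPKM (vertical axes, linear and from 0) of the 10 heat shock protein mRNAs in H-Ras(G12V), mCherry, etoposide and DMSO libraries. Bars are means, lines are the SD over 3 libraries, and the digits 1 to 3 mark single libraries. For Hspa1a, Hspa1b, Cryab and Hspb1, etoposide libraries 1 and 2 lie above all DMSO libraries while etoposide library 3 does not lie above all of them.

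None of the 10 heat shock proteins passed the test between H-Ras(G12V) and mCherry, and the median log2 fold change of the 10 was 0.05, equal to the 0.05 of all 12724 genes tested. The test was limma on log2(FPKM + 1), restricted to genes averaging 1 FPKM or more, two-sided, with Benjamini-Hochberg adjustment over all genes and a threshold of 0.05, and all 10 members passed the filter. In the same comparison 17.0% of all genes tested were called, 10.3% of all genes as higher and 6.67% as lower. At an unadjusted p under 0.05 there were 2 members, Hspb1 and Hspe1, against 34.4% of all genes. The groups did not overlap for 2 members, Hspa8 and Hspe1, against 40.3% of all genes. Fold changes below are log2 differences on the log2(FPKM + 1) scale with their standard errors, and they understate the change of low genes.

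None of the 10 passed between etoposide and DMSO either, where 0.453% of all 12371 genes tested were called. Here the median log2 fold change of the 10 members was 0.62, against 0.09 for all genes, and all 10 fold changes were positive. Cryab alone had an unadjusted p under 0.05, against 13.9% of all genes. Hspd1 alone had groups that did not overlap, against 15.8% of all genes. In etoposide libraries 1 and 2 all 10 members lay above the mean of the DMSO libraries, with median log2 differences of 0.89 and 0.76. The share of all genes above that mean was not counted. Not all members lay above every DMSO library. Hsph1 had 79.5 FPKM in etoposide library 1, against 84.9 and 87.9 FPKM in DMSO libraries 1 and 2. Hsp90aa1 had 437 FPKM in etoposide library 2, against 486 FPKM in DMSO library 2. DMSO library 3 was the lowest DMSO library for both genes. In etoposide library 3, 4 of the 10 members lay above the mean of the DMSO libraries, and the median was −0.10. Without etoposide library 3, 4 of the 10 members were called higher, Cryab, Hspa1b, Hspa1a and Hspb1, while 18.4% of all genes were called higher. In that reduced comparison the groups did not overlap for 8 of 10 members, against 59.6% of all genes. When DMSO library 3 was left out as well, 7 of 10 were called higher, the added ones being Hspa8, Dnajb1 and Hspe1, against 22.2% of all genes. Etoposide library 3 was the lowest etoposide library for all 7, and DMSO library 3 the highest DMSO library for the added ones. Leaving these libraries out therefore raised the fold changes by itself, and the calls are no separate support for a rise. No other pair of libraries was left out.

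**Figure D2:**
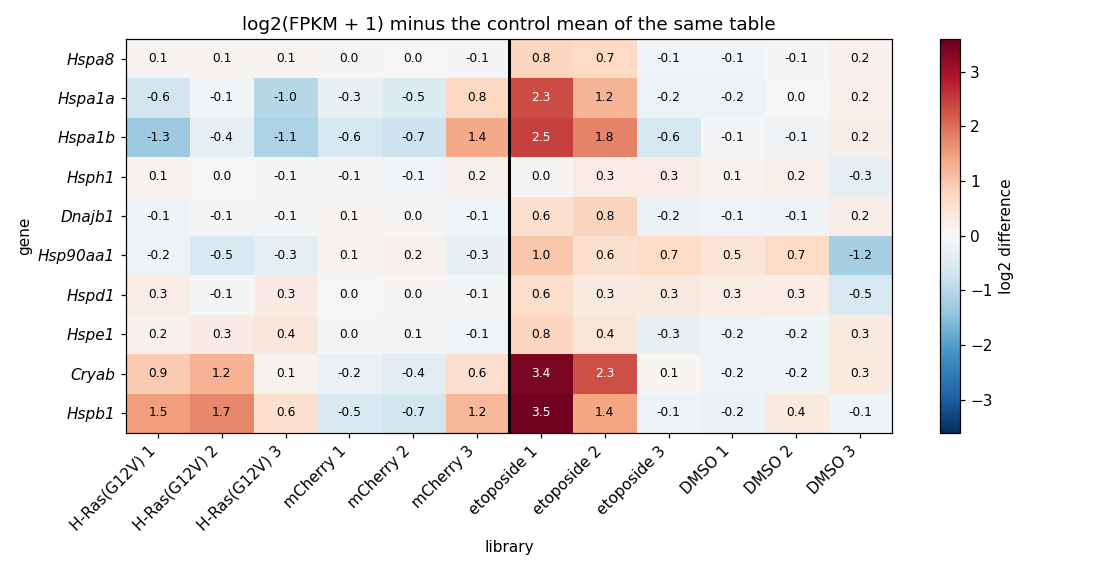
Difference of log2(FPKM + 1) from the mean of the control libraries of the same table (colour and printed value), for the 10 genes (rows) in the 12 libraries (columns). Etoposide libraries 1 and 2 are above 0 for all 10 genes, though Hsph1 prints as 0.0 in library 1, etoposide library 3 has a median of −0.10, and mCherry library 3 is above 0 for Hspa1a, Hspa1b, Cryab and Hspb1.

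Hspa8, the constitutive HSP70, had 2549, 2417 and 1390 FPKM in etoposide libraries 1 to 3, against 1379, 1418 and 1651 FPKM in DMSO libraries. Libraries 1 and 2 were above every DMSO library and library 3 lay within the DMSO range. The log2 fold change was 0.47 ± 0.35 (SE), with an adjusted p of 0.494 by limma. Under H-Ras(G12V) it had 1391, 1406 and 1438 FPKM, against 1364, 1351 and 1281 FPKM in mCherry libraries. The groups did not overlap, but the distance was small, with a log2 fold change of 0.08 ± 0.12, a 95% interval of −0.19 to 0.36 and an adjusted p of 0.647 by limma. The direction turned to −0.057 when libraries were scaled to a common FPKM sum. That scaling moved the median of all genes to −0.07 in the H-Ras(G12V) comparison, and the share of called genes that were higher was 39.1% in place of 60.7%.

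Hspa1a, an inducible HSP70, had 45.3, 20.4 and 7.08 FPKM in etoposide libraries 1 to 3, against 7.02, 8.19 and 9.36 FPKM in DMSO libraries. Etoposide libraries 1 and 2 stood above all DMSO libraries, and library 3 lay among them. The ratio of mean FPKM was 2.96, and the log2 fold change was 1.13 ± 0.55 with an adjusted p of 0.369 by limma. Without etoposide library 3 the log2 fold change was 1.78 with an adjusted p of 0.00455. In H-Ras(G12V) libraries Hspa1a had 2.45, 4.07 and 1.67 FPKM, against 3.50, 2.85 and 8.11 FPKM in mCherry libraries. The groups overlapped, mCherry library 3 was the highest of the 6, and the log2 fold change of −0.59 ± 0.37 had an adjusted p of 0.306 by limma.

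Hspa1b encodes nearly the same protein as Hspa1a. The longest open reading frames of their GENCODE M21 transcripts differed at 8 of 1926 bases, an identity of 99.6%, whereas Hspa1a and Hspa8 had an identity of 74.5%. How reads were divided between the near-identical pair was not stated, so the level of each alone is uncertain. Hspa1b had 47.4, 29.4 and 4.64 FPKM in etoposide libraries 1 to 3, against 7.33, 7.13 and 9.16 FPKM in DMSO libraries. Library 3 was the lowest of the 6 and libraries 1 and 2 the highest. The log2 fold change was 1.20 ± 0.68 with an adjusted p of 0.406 by limma, and 2.12 with an adjusted p of 0.000874 without etoposide library 3. Under H-Ras(G12V) it had 1.92, 4.60 and 2.27 FPKM, against 3.65, 3.29 and 17.7 FPKM in mCherry libraries. The groups overlapped and the log2 fold change of −0.93 ± 0.57 had an adjusted p of 0.293 by limma. Without mCherry library 3 it was −0.25 with an adjusted p of 0.480. Summed, the pair had 92.7, 49.8 and 11.7 FPKM in etoposide libraries, against 14.4, 15.3 and 18.5 FPKM in DMSO libraries. Under H-Ras(G12V) the sum was 4.37, 8.67 and 3.94 FPKM, against 7.15, 6.14 and 25.8 FPKM in mCherry libraries. Per 100 FPKM of Hspa8, the pair came to 3.64, 2.06 and 0.843 FPKM in etoposide libraries, against 1.04 to 1.122 FPKM in DMSO libraries. 

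Dnajb1, the J protein that works with the inducible HSP70, had 35.7, 41.6 and 20.1 FPKM in etoposide libraries 1 to 3, against 21.48, 21.01 and 27.83 FPKM in DMSO libraries. It followed the split of the HSP70 genes, with library 3 below all DMSO libraries. The log2 fold change was 0.40 ± 0.32 with an adjusted p of 0.513 by limma, and 0.70 with an adjusted p of 0.0521 without etoposide library 3. Under H-Ras(G12V) it had 18.7, 19.9 and 19.7 FPKM, against 21.7, 21.4 and 19.3 FPKM in mCherry libraries. This was a log2 fold change of −0.09 with a 95% interval of −0.34 to 0.16 and an adjusted p of 0.589 by limma.

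Hsph1, the nucleotide exchange factor of the HSP110 family, had the smallest variation of the 10 over the 12 libraries, with a root mean square of 0.156 around its table means on the log2(FPKM + 1) scale. It had 79.5, 93.5 and 93.1 FPKM in etoposide libraries 1 to 3, against 84.9, 87.9 and 61.9 FPKM in DMSO libraries. The groups overlapped, and DMSO library 3 was the lowest of the 6. The log2 fold change was 0.19 ± 0.25 with an adjusted p of 0.692 by limma, and it was −0.0023 when library 3 of both groups was left out. In H-Ras(G12V) libraries it had 79.4, 73.0 and 70.8 FPKM, against 70.4, 69.1 and 82.2 FPKM in mCherry libraries, a log2 fold change of 0.01 with a 95% interval of −0.27 to 0.29 and an adjusted p of 0.954 by limma. That sign turned under both other scalings of the libraries.

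**Figure D3:**
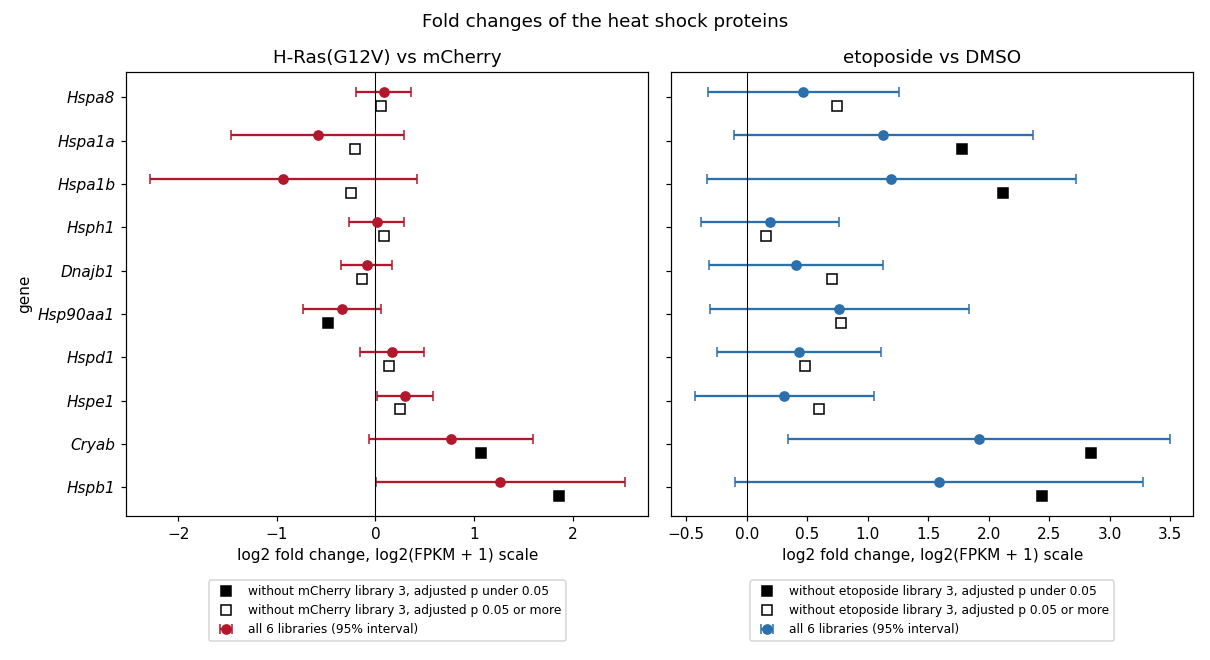
Log2 fold change on the log2(FPKM + 1) scale (horizontal axes, which differ in range) of the 10 genes between H-Ras(G12V) and mCherry (left) and between etoposide and DMSO (right). Circles and lines are the values and 95% intervals from all 6 libraries, and squares the values without library 3 of mCherry (left) or of etoposide (right), filled where the adjusted p was under 0.05. Filled squares are Hspb1, Cryab and Hsp90aa1 on the left, and Cryab, Hspb1, Hspa1b and Hspa1a on the right.

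The small heat shock proteins had the largest fold changes of the 10 in the etoposide comparison. Cryab, also called alpha B-crystallin, had 361, 171 and 35.3 FPKM in etoposide libraries 1 to 3, against 29.4, 30.1 and 43.1 FPKM in DMSO libraries. Libraries 1 and 2 were far above the DMSO libraries and library 3 was within their range. The ratio of mean FPKM was 5.53, and the log2 fold change of 1.92 ± 0.70 had an adjusted p of 0.353 by limma. Without etoposide library 3 it was 2.85 with an adjusted p of 0.000486. In H-Ras(G12V) libraries Cryab had 126, 155 and 70.8 FPKM, against 55.4, 50.3 and 99.0 FPKM in mCherry libraries. H-Ras(G12V) library 3 lay below mCherry library 3, and the log2 fold change of 0.77 ± 0.35 had an adjusted p of 0.174 by limma.

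Hspb1, the small heat shock protein also called HSP25 in the mouse, had 36.2, 7.86 and 2.08 FPKM in etoposide libraries 1 to 3, against 1.87, 3.27 and 2.02 FPKM in DMSO libraries. Library 1 alone held most of the difference in means, which came to a ratio of 6.44. The log2 fold change was 1.59 ± 0.75 with an adjusted p of 0.368 by limma, and 2.45 with an adjusted p of 0.00676 without etoposide library 3. In H-Ras(G12V) libraries Hspb1 had 16.9, 20.2 and 8.50 FPKM, against 3.37, 3.06 and 13.6 FPKM in mCherry libraries. The groups overlapped through mCherry library 3, and the log2 fold change of 1.27 ± 0.53 had an adjusted p of 0.144 by limma. The ratio of Cryab to Hspb1 was 7.44, 7.71 and 8.33 in H-Ras(G12V) libraries, against 16.4, 16.4 and 7.27 in mCherry libraries. These ratios overlapped, with an exact two-sided permutation p of 0.4, and 0.8 after adjustment over 8 ratio comparisons.

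Without mCherry library 3, 3 of the 10 members were called, against 44.9% of all genes, so their share was no higher than that of all genes. They were Hspb1, with a log2 fold change of 1.86 and an adjusted p of 0.00244, Cryab, with 1.07 and 0.0204, and Hsp90aa1, with −0.48 and 0.0181, by limma. mCherry library 3 was the highest of its group for Hspb1 and Cryab and the lowest for Hsp90aa1. Leaving it out therefore moved all 3 fold changes away from 0 by itself, and the calls are no separate support for a change. In this reduced fit the only controls are mCherry libraries 1 and 2, the pair with the highest rank correlation within either table. Markers of other cell types also differed between the groups of this table. All 10 astrocyte markers were detected, none was at 0 throughout a group, and their summed level was 3749, 3350 and 2603 FPKM in H-Ras(G12V) libraries, against 1205, 1212 and 3163 FPKM in mCherry libraries. The astrocyte filament gene Gfap had 2305, 2165.5 and 1320 FPKM, against 507, 519 and 1488 FPKM. mCherry library 3, high in Cryab and Hspb1, was the highest of its group for 9 of the 10 markers, but H-Ras(G12V) library 3, low in both genes, was the lowest of its group for 3. Without Gfap the sums were 1444, 1184 and 1283 FPKM in H-Ras(G12V) libraries, against 698, 693 and 1675 FPKM in mCherry libraries. With all libraries, 3 of 10 astrocyte markers were called higher, with a median log2 fold change of 0.75. Oligodendrocyte lineage markers were called higher for 6 of 9 tested, with a median of 1.58, and summed to 1060, 922 and 1120 FPKM in H-Ras(G12V) libraries, against 295, 229 and 763 FPKM in mCherry libraries. Fibroblast, meningeal and mural markers were called lower for 9 of 10, with a median of −3.16. Neuron markers summed to 1360 to 1594 FPKM in H-Ras(G12V) libraries, against 2157 to 2257 FPKM in mCherry libraries. The 13 neuron markers were mixed, and 5 had positive log2 fold changes. Nefm was called higher, and Rbfox3 and Elavl4 were called lower. Without mCherry library 3, 5 were called higher and 5 lower. The part of these cell types in the levels of the heat shock proteins was not tested, and in bulk RNA more cells of a type and more RNA per cell cannot be told apart.

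In the etoposide table most astrocyte markers went the other way from Cryab, with 2 of 10 having positive log2 fold changes. The summed level of the 10 was 990, 631 and 901 FPKM in etoposide libraries 1 to 3, against 1415, 1051 and 1628 FPKM in DMSO libraries. Without Gfap the sums were 818, 530 and 603 FPKM, against 1050, 767 and 1046 FPKM. Etoposide library 1, the highest in Cryab, then lay above DMSO library 2. Without etoposide library 3 the test called 7 of 10 markers lower, against 13.4% of all genes, and 1 higher, Gja1. Oligodendrocyte lineage markers summed to 118, 77.9 and 220 FPKM in etoposide libraries, against 692, 539 and 908 FPKM in DMSO libraries. They were the one list of cell type markers with calls when all libraries were used, 3 of 8 tested being lower, Olig2, Pdgfra and Sox10, with a median log2 fold change of −1.89. Microglia and macrophage markers, 9 of 9 detected, summed to 109, 80.8 and 9.79 FPKM in etoposide libraries, against 7.61, 27.8 and 5.19 FPKM in DMSO libraries. Neuron markers, 13 of 13 detected, summed to 726, 1583 and 2610 FPKM in etoposide libraries, against 2321, 2255 and 2051 FPKM in DMSO libraries. Most of the microglia sum was Cd68, a lysosomal gene, with 97.4, 77.5 and 3.78 FPKM in etoposide libraries, against 3.92, 11.5 and 3.22 FPKM in DMSO libraries. The other 8 summed to 11.98, 3.38 and 6.01 FPKM, against 3.69, 16.3 and 1.97 FPKM, so etoposide library 2 was not high in them. Etoposide libraries 1 and 2, which were high in Cryab, Hspa1a and Hspa1b, were the lowest of the 6 in the neuron sum. The part of these cell types in the result was not tested.

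Hsp90aa1, the stress-inducible cytosolic HSP90, had 462, 358 and 419 FPKM in H-Ras(G12V) libraries, against 561, 583 and 430 FPKM in mCherry libraries. H-Ras(G12V) library 1 lay above mCherry library 3, and the log2 fold change of −0.34 ± 0.17 had an adjusted p of 0.203 by limma. Its constitutive partner Hsp90ab1 had 928, 938 and 885 FPKM, against 1047, 1068 and 838 FPKM. The ratio of Hsp90aa1 to Hsp90ab1 was 0.498, 0.381 and 0.474 in H-Ras(G12V) libraries, against 0.536, 0.546 and 0.513 in mCherry libraries. The ratios did not overlap, with an exact two-sided permutation p of 0.1, the smallest that 3 against 3 libraries can give, and 0.8 after adjustment over 8 ratio comparisons. In etoposide libraries Hsp90aa1 had 583, 437 and 485 FPKM, against 402, 486 and 128 FPKM in DMSO libraries. DMSO library 3 stood far below the other 5, and the log2 fold change of 0.76 ± 0.47, with an adjusted p of 0.434 by limma, was 0.17 without that library.

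Hspd1 and its co-chaperonin Hspe1 lie head to head in the genome. Hspe1 had 202, 224 and 242 FPKM in H-Ras(G12V) libraries, against 187, 187 and 168 FPKM in mCherry libraries, so the groups did not overlap. The log2 fold change was 0.30 ± 0.12, with a 95% interval of 0.01 to 0.58 and an adjusted p of 0.131 by limma. Hspd1 had 256, 203 and 262 FPKM in H-Ras(G12V) libraries, against 214, 219 and 204 FPKM in mCherry libraries, which overlapped. Its log2 fold change of 0.17 ± 0.14 had an adjusted p of 0.422 by limma. In etoposide libraries Hspd1 had 247, 201 and 199 FPKM, against 193, 191 and 110 FPKM in DMSO libraries. Every etoposide library was above every DMSO library, and the log2 fold change of 0.43 ± 0.30, with an adjusted p of 0.472 by limma, was 0.16 without DMSO library 3. Hspe1 had 298, 235 and 146 FPKM in etoposide libraries, against 153, 157 and 222 FPKM in DMSO libraries, with library 3 the lowest of the 6. Its log2 fold change of 0.31 ± 0.33 had an adjusted p of 0.613 by limma. The ratio of Hspd1 to Hspe1 was 0.829, 0.855 and 1.36 in etoposide libraries, against 1.26, 1.22 and 0.493 in DMSO libraries, so the pair did not keep 1 ratio in that table. Under H-Ras(G12V) the ratio was 1.26, 0.906 and 1.09, against 1.15, 1.17 and 1.21 in mCherry libraries.

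The summed FPKM of the 10 members was 2557, 2467 and 2535 in H-Ras(G12V) libraries, against 2484, 2490 and 2323 in mCherry libraries. It was 4283, 3654 and 2382 in etoposide libraries, against 2278, 2410 and 2264 in DMSO libraries. As a share of all FPKM of a library, the 10 came to 0.698, 0.672 and 0.511% in etoposide libraries, against 0.488, 0.506 and 0.404% in DMSO libraries. These shares did not overlap, though the nearest were 0.511 and 0.506%. Their unadjusted exact two-sided permutation p was 0.1, the smallest that 3 against 3 libraries can give. The summed FPKM did overlap, and Hspa8 made up most of each sum. With H-Ras(G12V) the share was 0.485, 0.453 and 0.475%, against 0.504, 0.516 and 0.483% in mCherry libraries.

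The difference between the H-Ras(G12V) effect and the etoposide effect was tested directly, as an interaction contrast over the 12 libraries with each effect taken in its own table. None of the 10 members passed, against 2.78% of all 12179 genes tested, and Hspa1a alone had an unadjusted p under 0.05, against 17.3% of all genes. The Hspa1a contrast was −1.72 ± 0.74 with an adjusted p of 0.259 by limma, and that of Hspa1b was −2.13 ± 1.00 with an adjusted p of 0.294. The contrasts of Hspb1, at −0.33 ± 1.04, and of Hspe1, at −0.01 ± 0.36, were the ones least separated from 0 by their errors. Without etoposide library 3, 4 members were called lower in this contrast, against 11.6% of all genes. They were Hspa1b at −3.05, Hspa1a at −2.37, Cryab at −2.08 and Dnajb1 at −0.79, with adjusted p-values of 0.0131, 0.0124, 0.0204 and 0.0307 by limma in that order. Etoposide library 3 was the lowest etoposide library for all 4, so leaving it out moved the contrasts down by itself. These calls are therefore no separate support for a difference between the 2 effects. The fold changes of Hspa1a, Hspa1b, Dnajb1 and Hsp90aa1 had opposite signs in the 2 comparisons, and those of the other members were positive in both. With all libraries none of these fold changes passed in either comparison.

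Among 116 other genes of the chaperone network, 106 were tested between H-Ras(G12V) and mCherry, and 5 were higher and 4 lower. These were 8.49% of those tested, 4.72% higher and 3.77% lower, below the 17.0% of all genes called. Their median log2 fold change was 0.04, against 0.05 for all genes. Hspa5, the HSP70 of the endoplasmic reticulum, had 306, 286 and 307 FPKM in H-Ras(G12V) libraries, against 214, 212 and 193 FPKM in mCherry libraries, and rose by a log2 fold change of 0.54 ± 0.11 with an adjusted p of 0.0220 by limma. That call was lost in 8 of 16 other settings, among them leaving out any single library other than H-Ras(G12V) library 2 and mCherry library 3. Hyou1, the HSP110 of the same compartment, rose by 0.45 with an adjusted p of 0.0423, a call lost in 10 of 16 other settings, both other scalings and leaving out any 1 library other than mCherry library 3 among them. Hspa12a, a distant HSP70 relative, had 23.5 to 26.3 FPKM against 40.7 to 56.1 FPKM, and Dnajc6, the auxilin that uncoats clathrin vesicles in neurons, had 24.2 to 26.5 FPKM against 47.1 to 49.7 FPKM. Both fell, with log2 fold changes of −0.93 and −0.92 and adjusted p-values of 0.00973 and 0.00378 by limma. Neither passed in 1 fit of all 12 libraries, and Hspa12a no longer passed when H-Ras(G12V) library 1 was left out. Of the mitochondrial chaperones and proteases, Dnajc15, a J protein of the inner membrane, rose by 0.68 with an adjusted p of 0.0148 and was the only 1 of 12 called. Its call depended on the same libraries as that of Hspa5. Dnajc24, a J protein of diphthamide synthesis, rose by 0.66 with an adjusted p of 0.0281 and depended on them too, and Bag4, a nucleotide exchange factor, fell by 0.60 with an adjusted p of 0.0331, a call lost without any 1 library other than mCherry library 3. Hspb3 was also called higher and Hspa1l lower, both at mean levels under 5 FPKM and named here after their values were seen. None of the 8 tested subunits of the TRiC chaperonin, none of the 3 tested other HSP90 genes and none of the 18 other HSF1 targets were called.

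Between etoposide and DMSO, 104 of these 116 genes were tested and none was called, with a median log2 fold change of 0.22 against 0.09 for all genes. Without etoposide library 3, 21 were higher and 5 lower, which is 20.2% and 4.81% of those tested, against 18.4% and 13.4% of all genes, so the share called higher was near that of all genes. Of the 18 other HSF1 targets, 17 had positive fold changes, with a median of 0.47, where 7047 of all 12371 genes tested were positive, and without etoposide library 3 the test called 5 of them higher, Bag3, Zfand2a, Hspb8, Dedd2 and Ier5, and none lower. These 5 were 27.8% of the list, against 18.4% of all genes. Etoposide library 3 was the lowest etoposide library for all 5, so leaving it out raised their fold changes by itself. Bag3, the co-chaperone that links HSP70 to small heat shock proteins, had 36.2, 17.4 and 5.74 FPKM in etoposide libraries 1 to 3, against 6.08, 5.29 and 8.44 FPKM in DMSO libraries. It showed the same split of libraries as Cryab and Hspa1a. Hspa5 had 1335, 1103 and 245 FPKM in etoposide libraries, against 183, 242 and 124 FPKM in DMSO libraries. These groups did not overlap, with a log2 fold change of 2.01 ± 0.60 and an adjusted p of 0.348 by limma, or 2.78 and 0.000427 without etoposide library 3. All 12 mitochondrial chaperones and proteases had positive fold changes, with a median of 0.36, and 4 were called higher without etoposide library 3, or 33.3%, against the same 18.4% of all genes. Etoposide library 3 was the lowest etoposide library for these 4 too. In that setting 4 of 10 other HSP70 and HSP110 genes and 2 of 3 other small heat shock proteins were also called higher. Other J proteins, with 6 of 38, HSP70 and HSP90 co-chaperones, with 3 of 25, and TRiC, with 1 of 8, were below 18.4%. None of the 3 other HSP90 genes or of the 3 listed HSF genes and regulators was called.

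**Figure D4:**
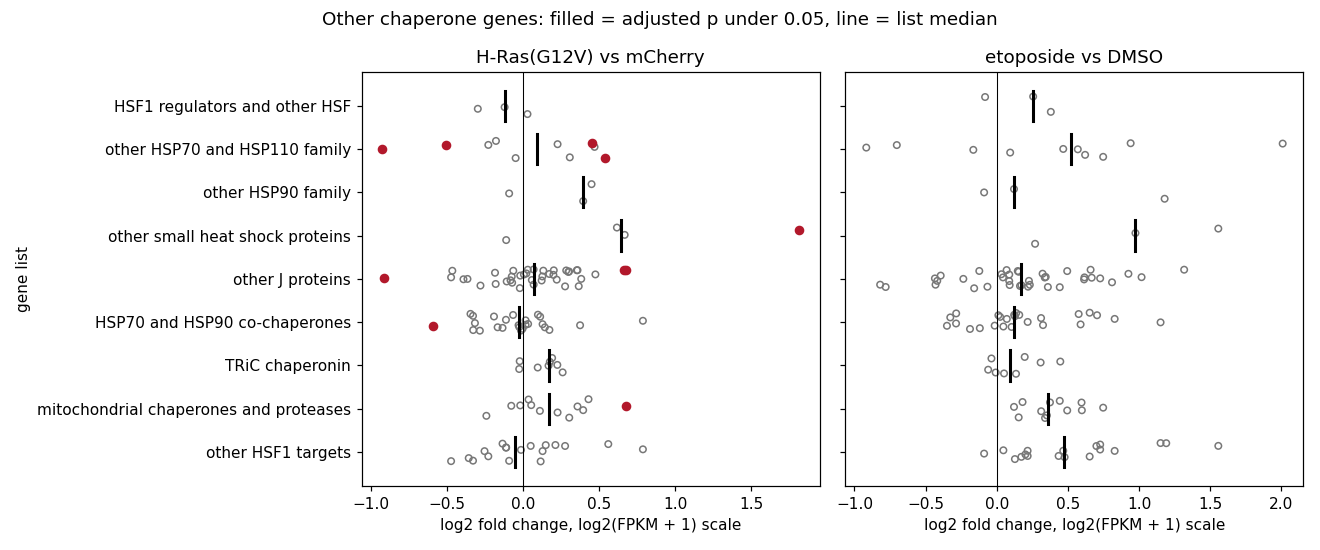
Log2 fold change on the log2(FPKM + 1) scale (horizontal axes) of the other chaperone genes by list (rows), between H-Ras(G12V) and mCherry (left) and between etoposide and DMSO (right). Each circle is a gene, filled where the adjusted p was under 0.05, and each black line is the median of a list. Filled circles appear on the left only, 5 genes higher and 4 lower, with Dnajc15 drawn in 2 lists.

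The factor HSF1 itself was not called. Hsf1 had 10.1, 13.4 and 10.4 FPKM in H-Ras(G12V) libraries, against 10.4, 10.4 and 12.3 FPKM in mCherry libraries, and its fold change of 0.03 ± 0.15 turned sign under both other scalings. In etoposide libraries it had 16.4, 16.9 and 7.58 FPKM, against 10.4, 8.96 and 12.9 FPKM in DMSO libraries, the same order of libraries as for Dnajb1. Hsf2 had 22.8, 15.4 and 21.5 FPKM in H-Ras(G12V) libraries, against 26.9, 26.8 and 20.1 FPKM in mCherry libraries. In etoposide libraries it had 16.5, 28.4 and 19.6 FPKM, against 18.90, 20.01 and 10.47 FPKM in DMSO libraries. Both factors overlapped between groups in both tables, and mRNA levels do not measure the activity of the proteins.

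Genes with the most similar profiles were sought among the 12178 other genes tested in both tables, by the root mean square difference of log2(FPKM + 1) over the 12 libraries after centring within each table. For Hspa1b the nearest gene was Hspa1a, at 0.351, where the Hspa1b profile itself had a root mean square of 1.01. For Hspa1a the nearest were Efhd2 at 0.312, Kif5a at 0.336 and Slc41a1 at 0.346. For Cryab they were Pdpn at 0.248, Tspo at 0.262 and Cd14 at 0.264, and for Hspb1 Csrnp1 at 0.261, Cd14 at 0.371 and Arpc1b at 0.385. Cd14 was among the 3 nearest of both small heat shock proteins. For Hspa8 the nearest were Psmd10 at 0.056, Yeats4 at 0.065 and Faim at 0.068. For Hsp90aa1 they were Zranb2 at 0.128, Ipo7 at 0.1499 and Ssb at 0.154. Hspd1 and Hspe1 were not among each other's 3 nearest genes.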

How the data were processed

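Per the file headers, the authors deposited 1 table of FPKM values for each model. HISAT, Bowtie2, RSEM and mm9 are listed in the submitters' processing notes without versions or roles; other scaling is not given there. FPKM are not counts, so no count model was fitted, and the tables, with 6 libraries each, were fitted separately. R 4.3.3 with limma 3.58.1 (eBayes with trend) was run on log2(FPKM + 1) over genes averaging 1 FPKM or more, and it was tested on simulated data first. A gene was called at a Benjamini-Hochberg adjusted p under 0.05 over all genes tested. The interaction fit pooled the spread of the 4 groups. The members and lists were chosen with earlier results of these data known. Named genes were the members, Hsf1, Hsf2, Hsp90ab1, Hspa5 and Bag3, and per list, comparison and direction up to 2 called genes of at least 5 FPKM without overlap of groups. Depth was estimated from the steps of low FPKM values with transcript lengths of GENCODE M21, another build, and is rough. Alternatives were other pseudocounts, filters, scalings and priors, a replicate block, a pooled fit and libraries left out.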

Additional observations from a re-analysis of the deposited data

How the results depend on the processing

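Leaving out 1 library at a time gave 0 to 3 called members for H-Ras(G12V) against mCherry, 0 to 4 for etoposide against DMSO and 0 to 4 for the interaction contrast, where 0 were called with all libraries. The counts above 0 came without mCherry library 3 or without etoposide library 3. With library 3 of both etoposide and DMSO left out, 7 members were called against DMSO and 5 in the contrast. Every other setting called no member. Over all genes the counts were 2161, 56 and 339 in the same order of comparisons. Leaving out 1 library gave 496 to 5716, 4 to 3938 and 183 to 2603, and leaving out library 3 of both etoposide and DMSO gave 4524 and 2957 for the comparisons that hold them. A mean of at least 5 FPKM gave 22 calls for etoposide and 161 for the contrast, no filter gave 601 for the contrast, and 1 fit of all 12 libraries gave 307 for H-Ras(G12V) and 175 for etoposide. Averaging mCherry libraries 1 and 2 gave 639 for H-Ras(G12V) and 189 for the contrast. The cause of these shifts was not tested.

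The labels do not say if replicate numbers pair the libraries. Deviations of same-numbered libraries from their group means correlated at −0.04, 0.03 and 0.12 in the H-Ras(G12V) table. In the etoposide table they correlated at −0.26, −0.17 and −0.15. These values cannot exclude pairing, because each deviation was taken around a mean of only 3 libraries. A replicate block called 1681, 12 and 267 genes and 0 members in each comparison.

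Signs turned for these fold changes, none of which was called with all libraries or where its sign turned. For H-Ras(G12V), scaling to a common FPKM sum gave −0.057 for Hspa8, −0.13 for Hsph1 and −0.10 for Hsf1, median-of-ratios scaling −0.059 for Hsph1 and −0.040 for Hsf1, and averaging mCherry libraries 1 and 2 −0.027 for Hsph1 and −0.011 for Hsf1. With 1 library left out, Hsph1 ranged from −0.035 to 0.090 and Hsf1 from −0.092 to 0.10. Without library 3 of etoposide and DMSO, Hsph1 gave −0.0023 against DMSO and 0.014 in the contrast. In the contrast, Hspe1 gave 0.0097 under median-of-ratios scaling and 0.010 with mCherry libraries 1 and 2 averaged. With 1 library left out, it ranged from −0.30 to 0.21, Hspb1 from −1.18 to 0.62 and Hspd1 from −0.40 to 0.0067. With 3 libraries a group, the depth of a table limits the low genes most, Hspa1a, Hspa1b and Hspb1, and no interval for counting error could be given from FPKM.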
